A study of Mus musculus with 18 samples.

Results

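Interferon-stimulated genes are the genes that cells switch on when an interferon binds its receptor. A list of 46 such genes, named by their symbols in the gene table, was followed among the 28442 genes measured by bulk RNA-seq in mouse liver cancer. The study profiled poly-A RNA of 6 non-tumoral livers and 12 advanced hepatocellular carcinomas. All 18 samples came from male Alb-R26Met mice, an F1 C57:129Sv cross in which a mouse-human chimeric Met transgene sits in the Rosa26 locus behind a stop cassette, and Cre made under the Alb promoter removes that cassette. The livers were therefore not wild type. They carried the same transgene and Cre as the tumors, and came from mice of 52 to 71 weeks (median 56.5) that had formed no tumor. The tumors came from mice of 49 to 72 weeks (median 65), and tumors 11 and 12 were taken from 1 mouse, so that the 18 samples represent 17 mice. No sample was given any treatment in the labels. Alb-Cre acts in hepatocytes, while each sample was a piece of whole tissue that holds other cells too. In such bulk samples, fewer cells of a type and less RNA per cell cannot be told apart.

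Type I and type III interferons act through a complex with Stat2 and Irf9 that binds a DNA element called ISRE, and interferon-γ acts mainly through an element called GAS. The genes so induced encode proteins that detect viral RNA, block its translation or copying, tag proteins with the ubiquitin-like Isg15, or attack the vacuoles of intracellular microbes. Hepatocytes, Kupffer cells and immune cells of the liver all respond to interferons, and many of these genes keep a low level of expression without infection.

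Values are TPM, a measure of transcript abundance that is corrected for transcript length, rounded to whole numbers and then scaled between samples. They are called scaled TPM below. A difference is a log2 difference of scaled TPM with 1 added, and its fold is on that same scale, which understates the change of low genes. A gene was called when its adjusted p, from limma with Benjamini-Hochberg adjustment over all genes tested, was under 0.05. The summed deposited values were 835144 to 884597 in the livers and 845356 to 907513 in the tumors. Tumor 2 stood apart. A single gene, Siglece, took 82.9% of its total. The same gene took 17.9% to 29.5% of each liver and 21.5% to 53.4% of each remaining tumor. A deposited step of 1 is therefore worth 5.25 scaled TPM in tumor 2, against 0.708 to 1.31 in the other tumors, and its values for weakly expressed genes are coarse. Markers of hepatocytes were high in every sample, with a sum over 6 genes of 35970 to 46699 scaled TPM in the livers and 35200 to 74385 in the tumors. The labels also carry 1 of 2 tags, whose meaning is not given in the sources used here. E19 marks 7 tumors with 2 livers, and E20 marks 5 tumors with 4 livers.

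The DNA just upstream of a start site of several members is shown first, since the interferon elements are part of what defines these genes. RefSeq promoter windows of GRCm38.p6, from 250 bases before to 50 bases after each start site, were searched on both strands for the ISRE letters TTTCNNTTTC (GAAANNGAAA on the other strand) and for the GAS letters TTCNNNGAA, which read the same on both strands. The ISRE letters stood in 3.44% of all 32851 windows and in at least 1 window of 21 of the 34 members that have one (61.8%), against 3.99% of all 27025 genes with a window. The GAS letters stood in 8.30% of all windows, in 9.55% of all genes and in 11 of the 34 members (32.4%). A match is a description of the letters and does not show that a factor binds there. Parp9, Gbp6, Zbp1, Parp14, Iigp1, Mx1, Oas2, Ifi27, Dhx58, Mx2, Usp18 and Rtp4 have no window in the table. Among the members called higher in tumors below, Ifit2 holds only GAS letters in its window, and Ifi44, Cmpk2, Oasl1 and Lgals3bp hold neither. The following stretches were chosen only among members with ISRE letters upstream of the start site. They include those of Ifit1, Igtp, Irgm2 and Tgtp1, genes that were not called. They are printed 5′ to 3′ on the strand of the gene, with the ISRE and GAS letters in capitals.
Isg15 (chr4:156200870-156200901, minus strand): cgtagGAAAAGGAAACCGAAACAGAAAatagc
Rsad2 (chr12:26456558-26456577, minus strand): ccaacTTTCATTTTCagaaa
Oas1a (chr5:120907526-120907550, minus strand): ctcggGAAATGGAAACTGAAAatct
Oas1g (chr5:120887614-120887636, minus strand): ctcggGAAATGGAAACTGAAAat
Ifit1 (chr19:34640780-34640818, plus strand): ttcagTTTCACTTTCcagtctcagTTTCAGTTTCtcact
Ifit3 (chr19:34583368-34583421, plus strand): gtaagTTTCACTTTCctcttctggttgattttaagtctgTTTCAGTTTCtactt
Ifit3b (chr19:34607764-34607817, plus strand): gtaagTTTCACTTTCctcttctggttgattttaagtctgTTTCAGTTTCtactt
Igtp (chr11:58199506-58199536, plus strand): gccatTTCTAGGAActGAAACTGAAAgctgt
Irgm2 (chr11:58214897-58214927, plus strand): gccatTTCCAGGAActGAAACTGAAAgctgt
Tgtp1 (chr11:48992309-48992339, minus strand): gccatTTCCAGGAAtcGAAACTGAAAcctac

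The capitals differ in arrangement. Rsad2 holds a single ISRE match. In Isg15, Oas1a and Oas1g, successive ISRE matches overlap in 1 run of repeated GAAA. In Ifit1, Ifit3 and Ifit3b, a pair of separate matches lies upstream of the start site of the window, and Ifit3 and Ifit3b carry the same 54 bases. The RefSeq spans of Ifit3 and Ifit3b begin before these matches, at chr19:34583119 and chr19:34607530, so their matches lie inside the annotated genes. The span of Oas1a reaches chr5:120907544, a position inside its printed stretch. In Igtp, Irgm2 and Tgtp1, a GAS match is followed after 2 bases by an ISRE match. The ISRE letters were in the window of 7 of the 12 members that were higher in tumors and have a window, and of 12 of the 20 that were tested and not called. The GAS letters were in 2 of those 12 and in 9 of those 20.

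**Figure D1:**
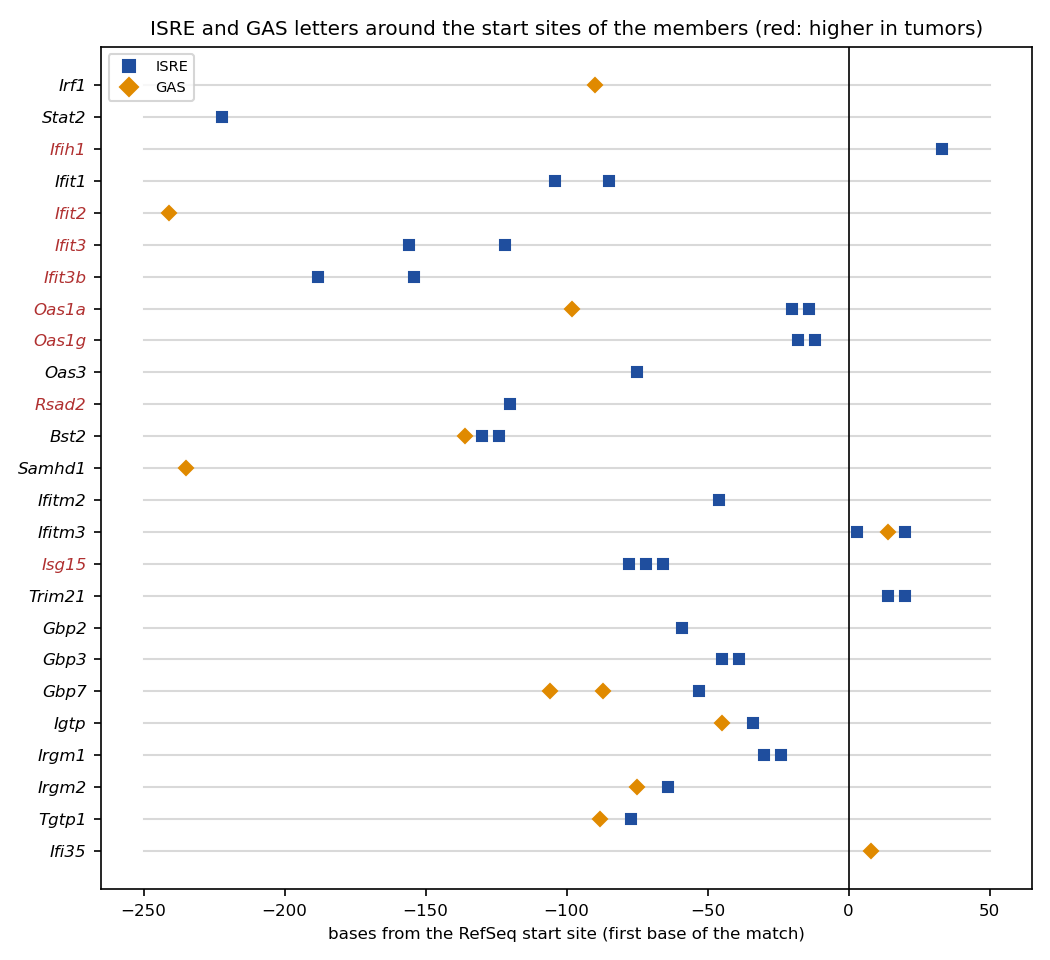
Positions of the ISRE letters (squares) and GAS letters (diamonds) relative to the RefSeq start site, in bases, in the first window of each member that holds a match, with the names of members higher in tumors in red. Most matches lie upstream of the start. Igtp, Irgm2 and Tgtp1 show the GAS match next to the ISRE match, and in Bst2 and Ifitm3 GAS and ISRE matches overlap.

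The first comparison asked whether interferon-stimulated genes differed between tumors and livers of the same genotype. In the tumors, 14 members were higher and 0 were lower, out of 42 members tested (33.3% called). Over all 11452 genes tested, 19% were called, 10.3% higher in tumors and 8.73% lower. The higher members were Ifit2, Ifi44, Oas1a, Rsad2, Isg15, Iigp1, Oas1g, Ifit3, Cmpk2, Ifi27, Oasl1, Ifit3b, Lgals3bp and Ifih1, with folds from 1.53 to 3.53, and 8 of them differed by at least 2-fold. The median log2 difference was 0.56 over the 42 members, 37 of which were positive, and -0.04 over all genes tested. Without scaling 8 of 45 members were called, against 1341 of all 13309 genes tested. Leaving out liver 3 left 7 of 42 members, against 1707 of 11389 genes, a share near that of the members. Leaving out liver 2 left 8 of 42 members, against 1623 of 11370 genes. Ifit2, Ifit3, Ifi44, Iigp1, Isg15, Oas1a and Rsad2 were called in all 18 fits that left out 1 sample. Ifi27 was not called without liver 3, Ifih1 without liver 2 or 3, and Lgals3bp without liver 2, 3 or 5. Oas1g was not called without liver 2, 3, 4 or 5, and Oasl1 without liver 2, 3, 4 or 6 or tumor 5 or 7. Cmpk2 lost its call in 9 of the 18 fits and Ifit3b in 9 of the 12 that could test it. An unadjusted p under 0.05 was reached by 19 members with limma, and by 18 members in an exact two-sided permutation test with all 18564 ways to assign the 18 samples. All genes were not counted at this threshold, so these counts have no background share beside them. With limma that share is at least the 19% of all genes called above.

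A filter on low values stands behind these counts, since a gene had to reach 1 scaled TPM in 6 samples. Oas2, Oas3, Mx1 and Gbp3 did not pass it, and Oas3 was listed at 0 in every liver. A member that is low in livers could pass the filter only with the help of tumors. On the livers alone, with at least 1 scaled TPM in all 6, 22 members passed, and 5 of them were higher in tumors, namely Ifih1, Isg15, Iigp1, Ifi27 and Lgals3bp. Of the 9176 genes that passed in the same way, 7.3% were higher and 10.1% lower. The other 9 called members, Ifit2, Ifit3, Ifit3b, Oas1a, Oas1g, Oasl1, Rsad2, Cmpk2 and Ifi44, needed values from tumors to pass.

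**Figure D2:**
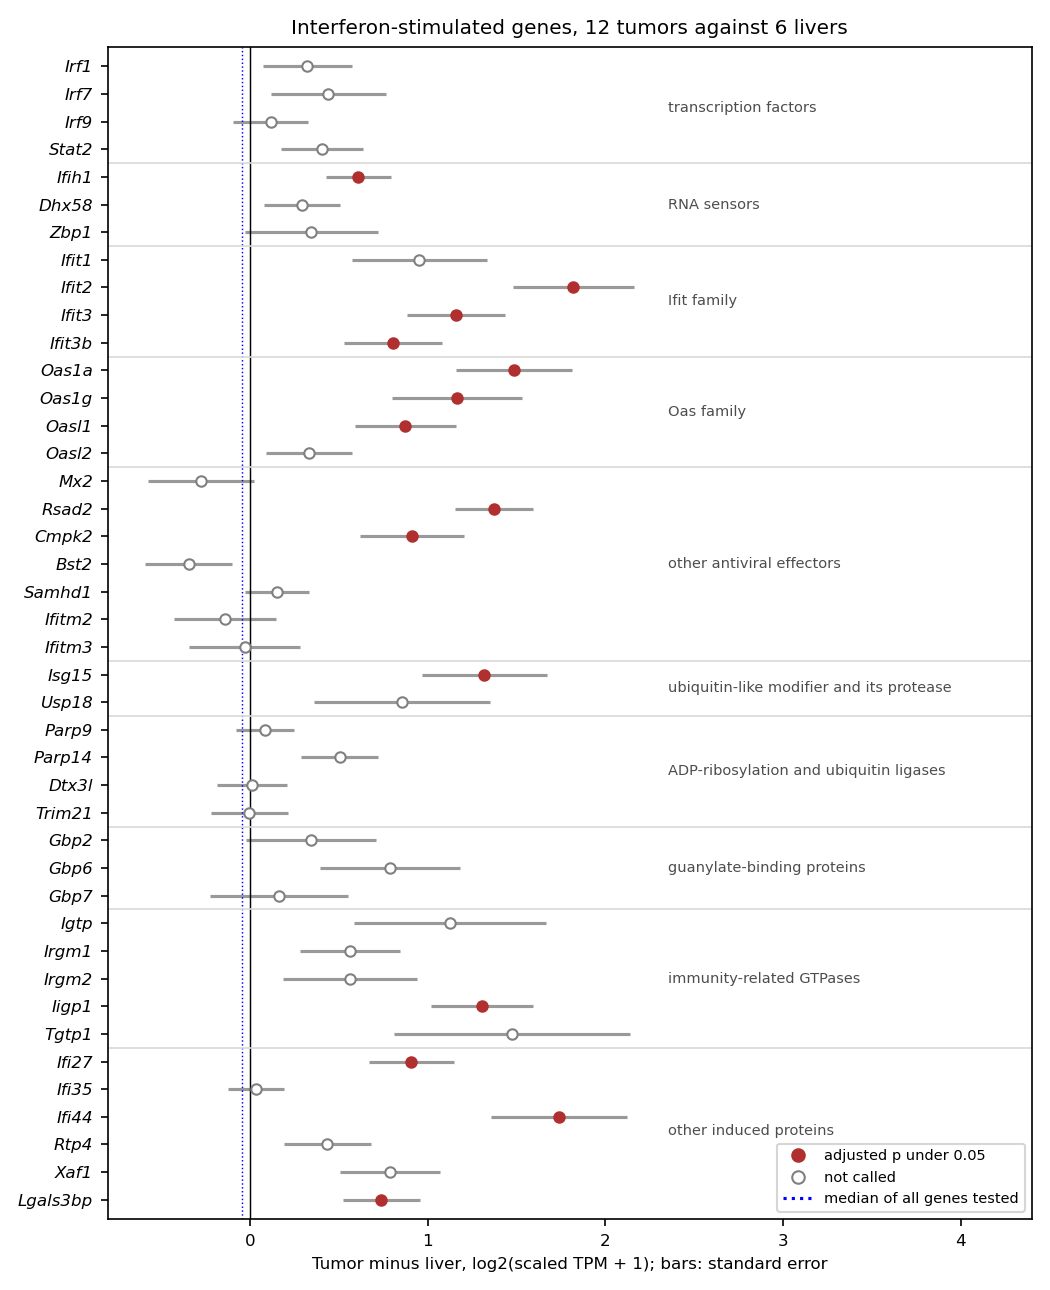
Difference between 12 tumors and 6 livers for each of the 42 members tested, grouped by role. The x axis is the difference in log2(scaled TPM + 1), bars are standard errors, filled red points passed an adjusted p under 0.05 and the dotted line is the median of all genes tested. The Ifit and Oas families hold 6 of the 14 filled points, and none lies left of 0.

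The Ifit proteins recognise foreign RNA ends and block their translation, and their genes form a cluster on chr19 (GRCm38.p6, chr19:34550550-34650009 from Ifit2 to Ifit1). Ifit2 was listed at 0 in 5 livers and at 0.799 scaled TPM in liver 6. In the tumors it ran from 0 to 5.86 with a median of 3.51, and every tumor but tumor 2 lay above every liver. Its log2 difference of 1.82 ± 0.34 (SE) was the largest of any member (limma adjusted p = 0.00067). Ifit3 had 0.717, 0.967 and 2.13 scaled TPM as its lowest, median and highest liver value, and 0.999, 4.18 and 9.57 in the tumors. It rose by 1.16 ± 0.27 on the log2 scale (limma adjusted p = 0.00492), with 10 of 12 tumors above all livers. Tumor 2 was above them with 1 deposited unit, against 1 to 2 units in the livers.

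Ifit3b, a neighbouring copy of Ifit3, was listed at 0 in 5 livers and at 1.06 in liver 5, and reached a median of 0.924 and a maximum of 2.65 in the tumors. Its difference was 0.81 ± 0.28 (limma adjusted p = 0.0442; not called with the tag as a covariate), and 5 of 12 tumors lay above all livers. The transcripts of Ifit3 and Ifit3b share 61.8% and 54.1% of their stretches of 31 bases with each other, so reads could be assigned to either gene and their separate values are uncertain. Ifit1 was below the threshold although 10 of 12 tumors lay above all livers. Its liver values were 0 to 1.06 with a median of 0.871, its tumor values 0 to 7.18 with a median of 2.90, and its difference 0.95 ± 0.38 (limma adjusted p = 0.0854).

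The Oas enzymes make short oligoadenylates that activate the ribonuclease RNase L, and Oas1a, Oas1g, Oas2 and Oas3 lie side by side on chr5 (chr5:120730333-120907544). Oas1a had 0.943 to 2.15 scaled TPM in the livers with a median of 1.29, and 1.31 to 21.5 in the tumors with a median of 5.82. All tumors except tumor 11 exceeded all livers, and the difference was 1.49 ± 0.33 (limma adjusted p = 0.00278). Tumor 2 did so with 1 deposited unit, against 1 to 3 units in the livers. Oas1g was listed at 0 in 4 livers, with a highest liver value of 0.799, and ran from 0 to 7.97 in the tumors with a median of 2.06. Its difference was 1.16 ± 0.36 (limma adjusted p = 0.0286), with 10 tumors above all livers. Oas1a and Oas1g share 68.7% and 54.6% of their 31-base stretches with each other, so here too the split between the copies is uncertain.

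Oasl1 and Oasl2 are Oas-like proteins encoded together elsewhere on chr5 (chr5:114896926-114937911). Oasl1 had 0.943, 1.79 and 7.17 scaled TPM as its lowest, median and highest liver value and 2.65, 5.13 and 10.4 in the tumors. Its difference of 0.88 ± 0.28 passed the test (limma adjusted p = 0.0326), but liver 1 was higher than all but 2 tumors. Oasl2 had a median of 0.871 in the livers and 1.09 in the tumors and was not called (difference 0.33 ± 0.24, limma adjusted p = 0.385). The enzymes Oas2 and Oas3 stayed under the filter, with highest tumor values of 5.25, which is 1 deposited unit in tumor 2, and 0.91.

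Among the other antiviral effectors, Rsad2 and Cmpk2 rose and no other member of the group was called. Rsad2, or viperin, makes a nucleotide that terminates viral RNA chains, and Cmpk2, its neighbour on chr12 (Rsad2 at chr12:26442743-26456452, Cmpk2 at chr12:26469117-26479837), is a mitochondrial nucleotide kinase. Rsad2 had 0, 0.872 and 1.06 scaled TPM as its lowest, median and highest liver value, and 1.66, 3.91 and 5.58 in the tumors. It was the 1 member for which every tumor lay above every liver, which held for 2.31% of all genes tested. Tumor 2 cleared the livers with 1 deposited unit, worth 5.25 scaled TPM there, and 1 unit was also the most listed in any liver. No member had every tumor below every liver, against 0.899% of all genes. The difference of Rsad2 was 1.38 ± 0.22 (limma adjusted p = 0.000144). Its exact two-sided permutation p of 5.39e-05 is the smallest that these assignments allow. That p reflects the complete separation, and so depends on the 1 unit in tumor 2 as well. Cmpk2 had 0 to 2.13 in the livers with a median of 0.871 and 0 to 4.78 in the tumors with a median of 2.67. Its difference was 0.91 ± 0.29 (limma adjusted p = 0.0329), and 8 tumors lay above all livers.

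The remaining effectors of this group did not pass the test, Ifitm3 and Ifitm2, the most abundant members, among them. Ifitm3, which hinders the fusion of viral envelopes with cell membranes, had 205 to 514 scaled TPM in the livers with a median of 448 and 94.5 to 696 in the tumors with a median of 407 (difference -0.03 ± 0.31, limma adjusted p = 0.965). Ifitm2, of the same family, had medians of 195 and 188 (difference -0.14 ± 0.29, limma adjusted p = 0.805), within ranges of 140 to 216 in livers and 36.7 to 245 in tumors. The lowest tumor value of both was that of tumor 2, and without it they started at 287 and 148. Ifitm2 shares 38.1% of its 31-base stretches with the gene model Gm45717. Bst2, or tetherin, which holds budding viruses at the cell surface, had 66.1, 80.1 and 136 scaled TPM as its lowest, median and highest liver value and 38.2, 65.1 and 158 in the tumors (difference -0.34 ± 0.25, limma adjusted p = 0.378). Samhd1, which degrades deoxynucleotides, had medians of 5.16 and 5.12. Mx2 had medians of 1.48 and 0.931, and both Mx1 and Mx2 are annotated as transcribed pseudogenes in RefSeq.

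Isg15, the ubiquitin-like protein that is attached to many targets during an interferon response, lies on chr4 (chr4:156199424-156200818). Its liver values were 2.83, 5.46 and 6.45 scaled TPM at the lowest, median and highest, and its tumor values 3.996, 16.2 and 41.5. All tumors except tumor 4 were above all livers, and the difference was 1.32 ± 0.35 (limma adjusted p = 0.0106). Usp18, the protease that removes Isg15 and also dampens signalling at the interferon receptor, had a median of 0.967 in the livers and 3.52 in the tumors. Its difference of 0.86 ± 0.49 was below the threshold (limma adjusted p = 0.256), and it stayed uncalled in all 18 fits that left out 1 sample. Its tumor values ran from 0 to 32.7, and the highest, in tumor 10, was 9.31 times the tumor median. The next highest tumor, tumor 5, had 6.38.

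The sensors of foreign RNA and DNA gave 1 call out of 3. Ifih1 (MDA5), which detects long double-stranded RNA, had 5.66 to 11.5 scaled TPM in the livers with a median of 8.22 and 8.85 to 20.9 in the tumors with a median of 12.1. It rose by 0.61 ± 0.18 on the log2 scale (limma adjusted p = 0.0226), with 8 tumors above all livers. Dhx58 (LGP2), its partner, had medians of 3.08 and 2.78 and was not called (limma adjusted p = 0.386). Zbp1, which binds nucleic acids in the Z form, had medians of 1.93 and 2.55 and was not called (limma adjusted p = 0.589).

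None of the 4 transcription factors that drive the response was called with group alone in the fit. Stat2 had a median of 16.4 scaled TPM in the livers and 22.4 in the tumors, with ranges of 11.7 to 23.7 and 14.2 to 52.5 (difference 0.40 ± 0.23, limma adjusted p = 0.248). With the tag as a covariate Stat2 was called, with a difference of 0.58 (limma adjusted p = 0.021). Irf9 had medians of 6.497 and 7.02, Irf1 6.57 and 7.37, and Irf7 5.80 and 8.97, and their adjusted p-values from limma were 0.767, 0.416 and 0.39.

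No member among the enzymes of ADP-ribosylation and ubiquitin ligation was called with group alone in the fit. Parp9 and its ligase partner Dtx3l, next to each other on chr16, had liver medians of 6.19 and 13.4 scaled TPM and tumor medians of 7.04 and 14.6. Parp14 had 4.83 and 8.95 (difference 0.50 ± 0.22, limma adjusted p = 0.113). It was called with the tag as a covariate (difference 0.65, limma adjusted p = 0.0124). Trim21, a ligase that is also a receptor for antibodies in the cytosol, had 1.03 and 1.36. Dtx3l ran from 11.3 to 20.0 in the livers and from 5.25 to 19.1 in the tumors, so that 0 tumors exceeded all livers.

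Of the remaining induced proteins, Ifi44, Ifi27 and Lgals3bp were higher in tumors. Ifi44 was listed at 0 in 5 livers and at 0.717 scaled TPM in liver 1, and ran from 0 to 14.4 in the tumors with a median of 2.72. All tumors except tumor 2 lay above all livers, and the difference was 1.74 ± 0.38 (limma adjusted p = 0.00267). Ifi27, a mitochondrial protein, had 33.0 to 92.7 in the livers with a median of 56.9 and 62.8 to 200.1 in the tumors with a median of 99.6. Its difference was 0.91 ± 0.24 (limma adjusted p = 0.0101), with 8 tumors above all livers.

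Lgals3bp, a secreted glycoprotein that binds galectins, had 21.3, 24.2 and 43.7 scaled TPM as its lowest, median and highest liver value and 26.0, 46.7 and 86.1 in the tumors. Its difference was 0.74 ± 0.22 (limma adjusted p = 0.0188), and 7 tumors lay above all livers. Xaf1, a protein that promotes cell death, came just short with medians of 1.79 and 4.72 (difference 0.79 ± 0.28, limma adjusted p = 0.0549). Rtp4 had medians of 3.28 and 5.24 (limma adjusted p = 0.243), and Ifi35 had 8.69 and 9.46 (limma adjusted p = 0.914).

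**Figure D3:**
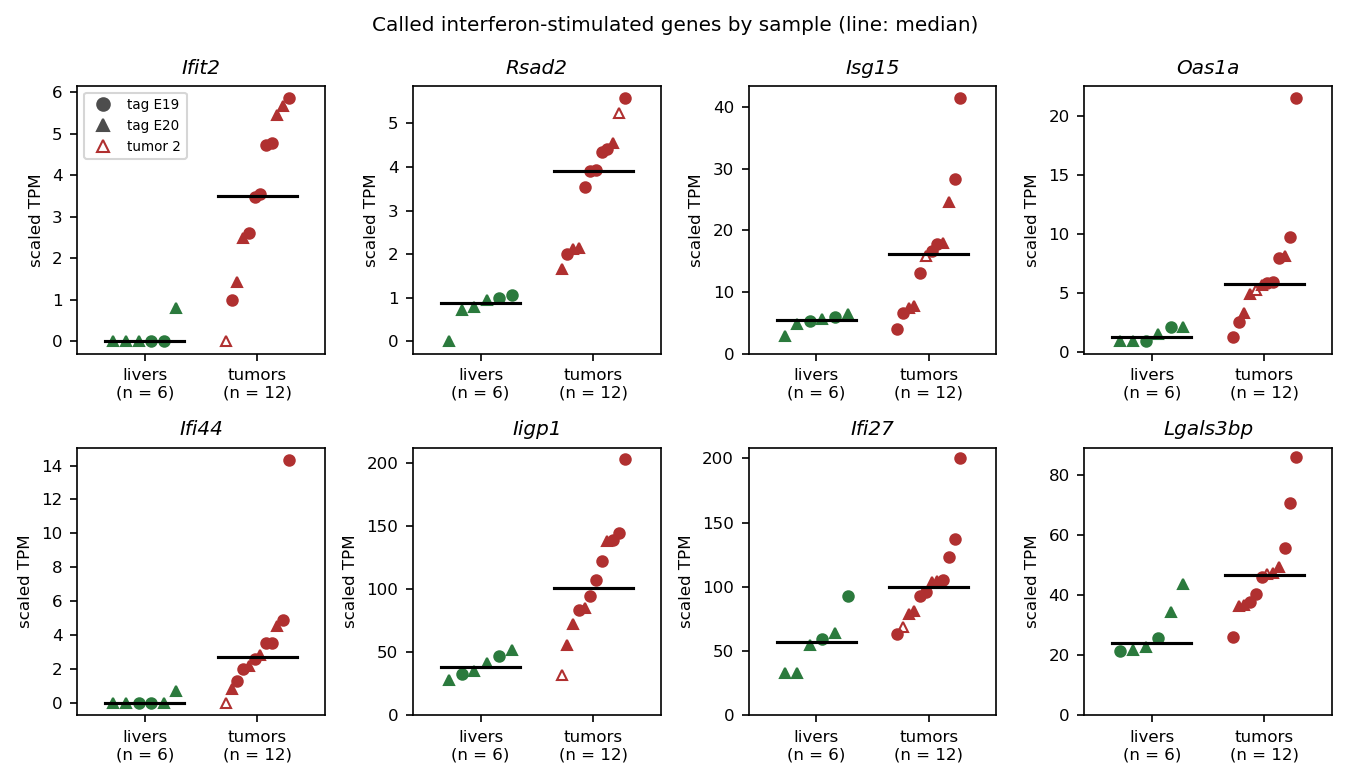
Scaled TPM of 8 of the 14 members called higher in tumors, 1 panel for each gene, in 6 livers (green) and 12 tumors (red). Circles carry the tag E19 and triangles E20, the open triangle is tumor 2, and the line is the median. Tumor 5 is the highest tumor in 7 of the 8 panels. For Rsad2 all 12 tumors lie above all 6 livers, tumor 2 with 1 deposited unit.

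The GTPases induced by interferon-γ fall into guanylate-binding proteins (Gbp) and immunity-related GTPases, which together attack the vacuoles of intracellular parasites and bacteria. Only Iigp1 was called among the 8 tested. It had 27.96, 38.2 and 51.2 scaled TPM as its lowest, median and highest liver value and 31.5, 101 and 203 in the tumors. All tumors except tumor 2 exceeded all livers, and the difference was 1.30 ± 0.29 (limma adjusted p = 0.00284). The other 7 were not called, although the differences of Tgtp1 (1.47 ± 0.66, limma adjusted p = 0.135) and Igtp (1.13 ± 0.54, limma adjusted p = 0.161) were as large as those of called members. Their standard errors were larger, and a few tumors held most of the signal.

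Igtp lay at 4.72 to 13.6 scaled TPM in the livers with a median of 8.67. It reached 59.6, 118 and 101 in tumors 3, 5 and 10, and 4.97 to 30.9 in the other 9 tumors. Tgtp1 was at 0 to 1.06 in the livers, at 27.3, 31.1 and 30.97 in the same 3 tumors, and at 0 to 2.37 in the others. These values separate the 3 tumors from the remaining 9 without overlap. For tumors 3 and 10 the mouse number in the labels differs from that in the study's table of mice. Their columns were matched by tumor piece and tag, and that of tumor 10 by elimination, since tumor 5 has the same piece and tag. All 3 carry the tag E19, so no comparison of groups or tags depends on this match. Tgtp1 shares 83.2% of its 31-base stretches with Tgtp2, so its values may include reads of that copy.

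Irgm1, a regulator of the family, had 19.5, 35.9 and 23.0 scaled TPM in tumors 3, 5 and 10, against 5.25 to 10.99 in the remaining tumors and 6.60 to 9.59 in the livers. Irgm2 had 10.7, 11.2 and 11.5 in the 3 tumors, and at most 4.25 in the others. Both had medians over all 12 tumors, 10.6 and 3.61, close to their highest liver values of 9.59 and 3.20. The guanylate-binding proteins showed the same 3 tumors less sharply. Gbp6 had 7.81, 15.1 and 13.3 against 0.999 to 5.25 in the remaining tumors and 0.717 to 2.40 in the livers, and it shares 67.8% of its 31-base stretches with the gene model Gm43302.

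Gbp7 had 5.86, 12.0 and 7.96 scaled TPM in tumors 3, 5 and 10 against 0 to 4.29 in the others, and Gbp2 had 1.95, 5.58 and 10.6 against 0 to 2.15. Tumors 5 and 10 were the 2 highest tumors for 7 of the 8 GTPases tested and for 7 of the other 34 members. Tumors 3, 5 and 10 were the 3 highest for 6 of the 8 and for 5 of the other 34. The exception among the 8 in the first count was Iigp1, which was highest in tumor 5, then in tumors 3 and 9. All 7 GTPases with a promoter window, untested Gbp3 included, hold the ISRE letters and 4 hold the GAS letters. Igtp, Irgm2 and Tgtp1, whose GAS and ISRE matches lie close together, are among the 6 led by tumors 3, 5 and 10. GAS and ISRE matches also overlap in Bst2 and Ifitm3, which are not GTPases. Bst2 was highest in tumors 5, 10 and 3, and Ifitm3 in tumors 5, 3 and 4. A link between the letters and the tumors was not tested. Since tumors 3, 5 and 10 were picked out by their values, no test was made between them and the others.

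**Figure D4:**
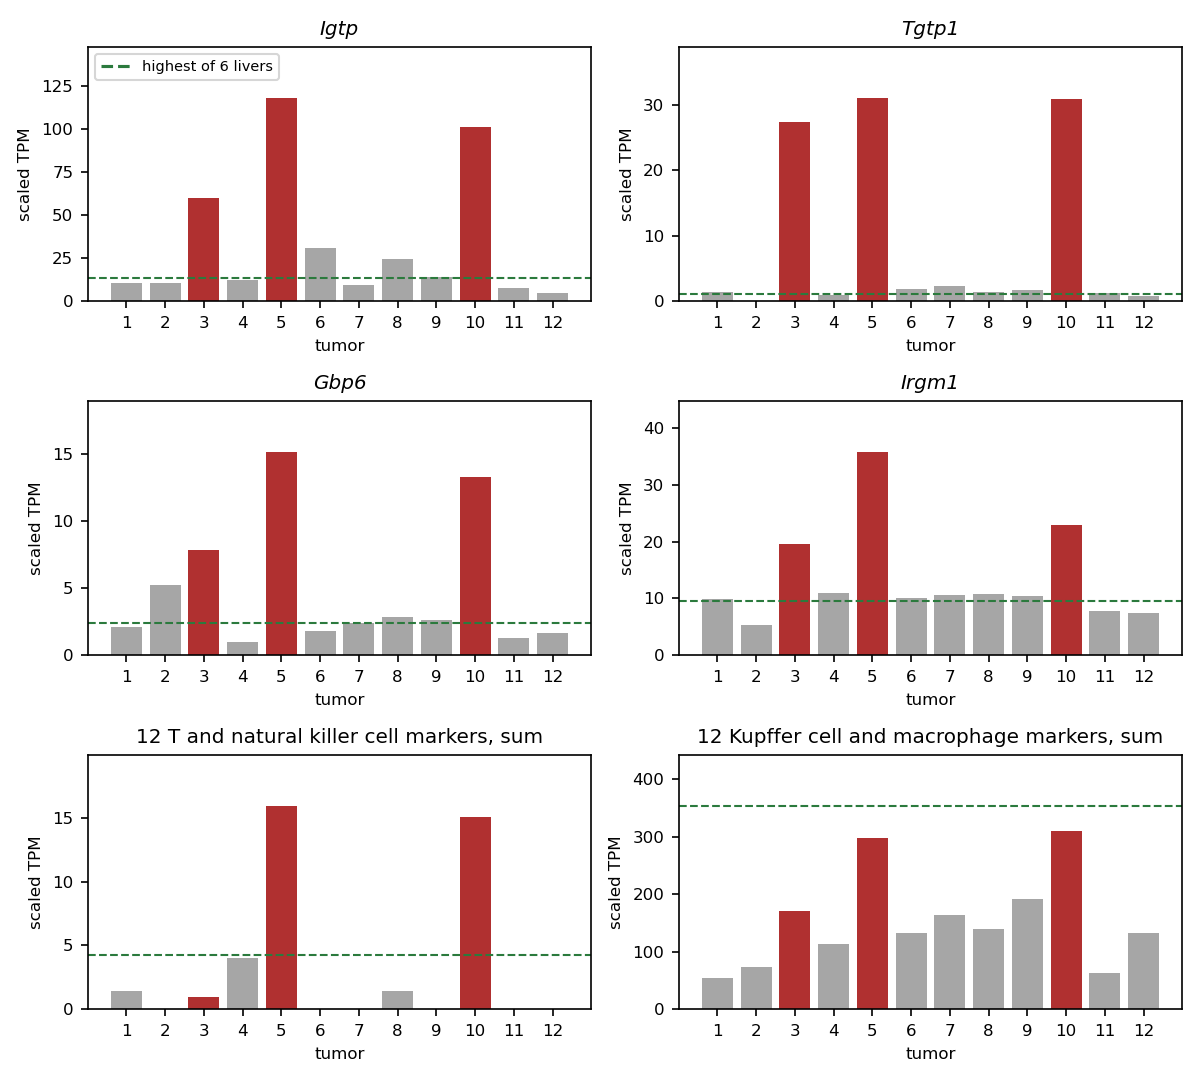
Scaled TPM of 4 GTPase genes in each of the 12 tumors, with the summed scaled TPM of 12 T and natural killer cell markers and of 12 Kupffer cell and macrophage markers. Tumors 3, 5 and 10 are drawn in red, and the dashed line is the highest of the 6 livers. Igtp, Tgtp1, Gbp6 and Irgm1 are highest in these 3 tumors, and the lymphocyte sum is above all livers in tumors 5 and 10 alone.

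The tumors differed widely over the whole list. Tumor 5 was the highest tumor for 30 of the 42 members tested and among the 3 highest for 38, and 38 members there exceeded all livers. Its median log2 difference from the median liver was 1.80 over the 42 members. Tumor 10 followed with a median of 1.29 and 27 members above all livers, and tumor 3 with 0.96 and 29. Tumor 4, at 0.04 with 10 members above all livers, and tumors 11 and 12, at 0.09 and 0.16 with 13 and 12, stayed near the livers. Tumors 11 and 12 are from the same mouse. Tumor 2 was the lowest tumor for 20 members and the highest for 4, and 1 deposited unit there is worth 5.25 scaled TPM. The livers spanned medians of -0.17 to 0.20. The counts of members by tumor were not made over all genes, so they have no background share beside them. Of the 42 members, 20 were not at 1 scaled TPM or more in every liver, and passed the filter only with values from tumors. Part of the counts above all livers may therefore come from the filter.

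The pattern of tumor 5 differed by role. Its median log2 difference from the livers was 2.28 for the Ifit family, 2.60 for the Oas family and 2.39 for the immunity-related GTPases, but 0.83 for the transcription factors and 0.80 for the enzymes of ADP-ribosylation and ubiquitin ligation. Irf7, the factor that amplifies interferon production, stood at 39.9 scaled TPM in tumor 5, above the 3.92 to 10.5 of the other 11 tumors and above the 14.9 of the highest liver. Tumor 10 was at 1.88 for the immunity-related GTPases, 2.31 for the guanylate-binding proteins, 1.78 for the Ifit family and 1.02 for the Oas family. Tumor 6 was near it for the Ifit family, at 1.85, and had 1.61 for the Oas family, 0.63 for the immunity-related GTPases and -0.03 for the guanylate-binding proteins.

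**Figure D5:**
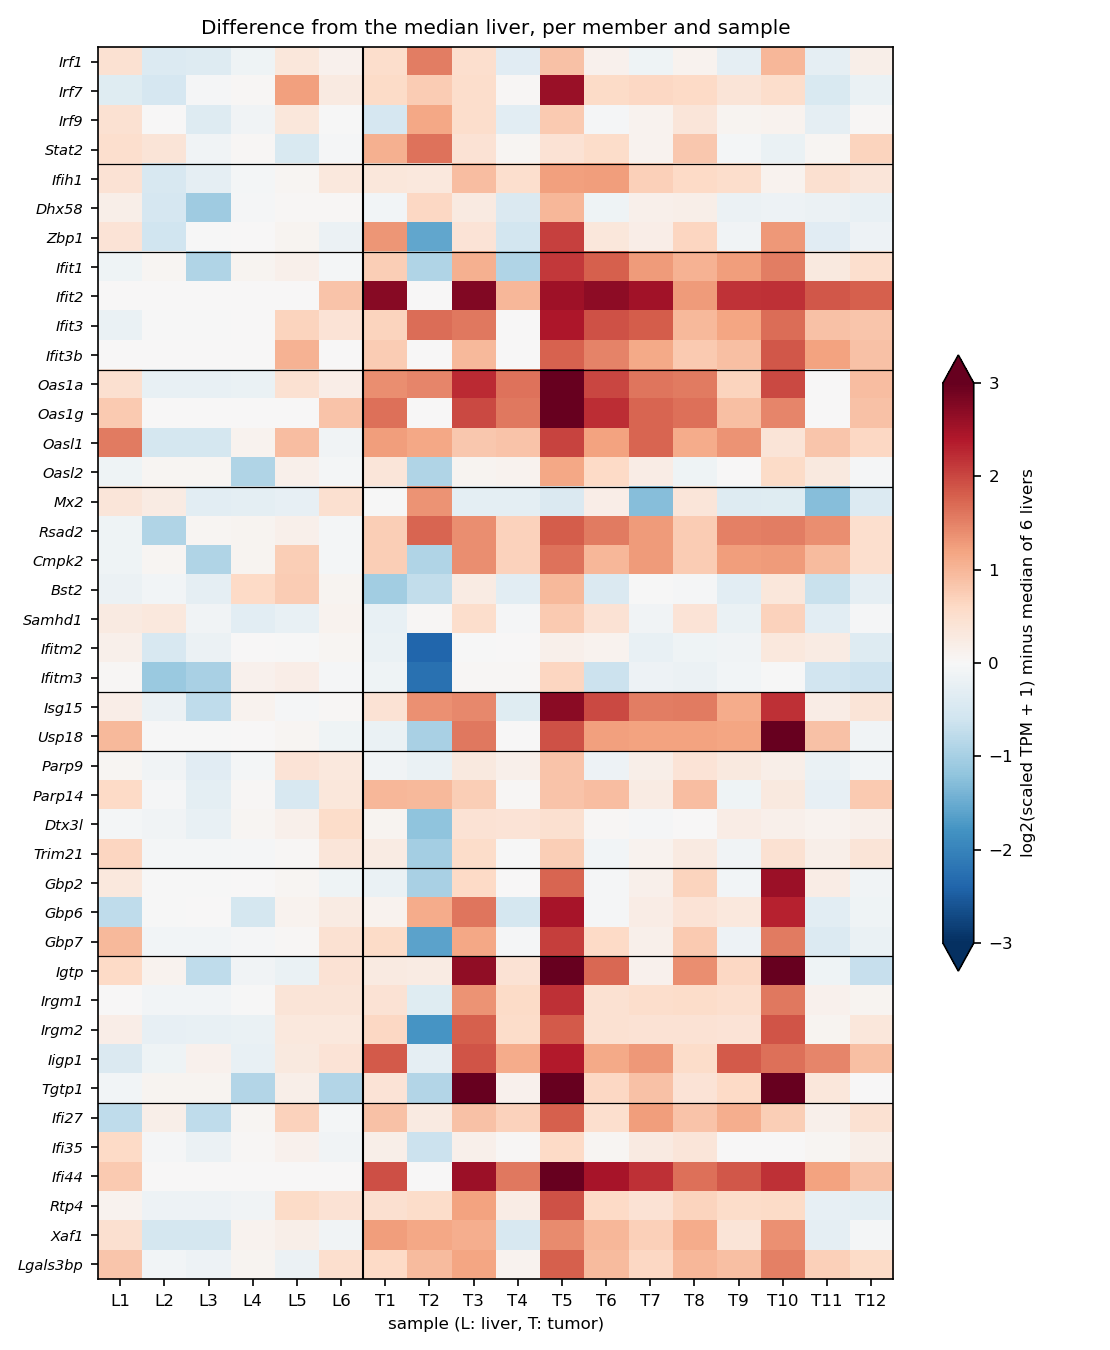
Difference of each of the 42 members tested (rows, grouped by role) from the median of the 6 livers in each sample (L1 to L6 livers, T1 to T12 tumors), as log2(scaled TPM + 1). Red is higher and blue lower. The column of tumor 5 is red for most members, tumors 3 and 10 are red for the GTPases, and tumor 2 holds most of the strong blue cells.

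Markers of T and natural killer cells were high in tumors 5 and 10, but not in tumor 3. The sum of 12 T and natural killer cell markers was 15.9 scaled TPM in tumor 5 and 15.04 in tumor 10, against 0 to 3.996 in the remaining tumors and 0 to 4.26 in the livers. Of these markers 10 were above 0 in tumor 5 and 9 in tumor 10. Cd3d, Cd3e, Cd3g, Cd4, Cd8a and Cd8b1 were above 0 in no other tumor, and Ncr1 and Klrb1c were listed at 0 in all 18 samples. In tumor 3 the sum was 0.976, with 1 marker above 0. Among the tumors, the sum of 12 Kupffer cell and macrophage markers was highest in tumors 10 and 5, at 310 and 298. It was 54.5 to 191 in the remaining tumors and 121 to 354 in the livers. In tumor 10, 9 of the 12 were above 0, against all 12 in tumor 5 and in each liver. Over all tumors these markers were not higher than in livers, with 0 of 10 tested rising and 1, Clec4f, lower by a log2 difference of -1.45 ± 0.48 (limma adjusted p = 0.0394). Their part in the member values was not tested.

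Other cell types gave fewer values. Plasmacytoid dendritic cells, which are strong producers of type I interferon, were represented by 4 markers whose sum was 0 in every liver and at most 0.91 in the tumors, with Ccr9 and Klk1 at 0 throughout. The sums of 6 classical dendritic cell markers (Xcr1 and Flt3 at 0 throughout) were 4.26 to 7.56 in the livers and 2.61 to 10.5 in the tumors. Those of 5 neutrophil markers (Cxcr2 at 0 throughout) were 0.943 to 5.74 and 0 to 3.54. None of the 3 dendritic cell markers and the 1 neutrophil marker that could be tested was called. In the lists of structural and dividing cells, 2 of 8 endothelial, 3 of 7 stellate cell and fibroblast, 1 of 2 cholangiocyte and 4 of 4 proliferation markers tested were higher in tumors, and 2 stellate cell markers were lower. Over all genes tested, 10.3% were higher and 8.73% lower. Of 6 hepatocyte markers, 1 was higher and 1 lower. Some of these sums also moved with tumors 5 and 10. Proliferation markers summed to 29.5 and 29.2 scaled TPM there, the highest of all tumors, against at most 26.1 in the remaining tumors and 2.83 in the livers. Stellate cell and fibroblast markers summed to 81.3 and 134, above the highest liver at 71.4, as they also did in tumors 6 and 8. The endothelial sums of these 2 were the lowest of the tumors, at 91.7 in tumor 5 and 44.2 in tumor 10, against 63.8 to 135 in the livers. Their part in the member values was not tested either.

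The interferons themselves were below detection. Of 15 ligand genes listed, 14 were in the table, among them Ifnb1 and Ifng, and all 14 were listed at 0 in all 18 samples. These are rounded values, so a level under 0.5 TPM would also appear as 0. Of 16 receptor and signalling genes tested, 2 were higher and 1 was lower in tumors, with a median log2 difference of 0.30. Over all genes tested, 10.3% were higher and 8.73% lower, with a median of -0.04. Ifngr1, the ligand-binding chain of the interferon-γ receptor, had 3.77, 4.51 and 5.32 scaled TPM as its lowest, median and highest liver value and 10.5, 21.2 and 54.9 in the tumors. Every tumor lay above every liver, and the difference was 2.13 ± 0.26 (limma adjusted p = 5.96e-06). Tumor 2, the lowest tumor, held 2 deposited units against 4 to 6 in the livers, and stood above them through its scaling.

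Ifngr2, its partner chain, rose by 0.71 ± 0.17 (limma adjusted p = 0.00568), and Irf2, a factor that can compete with Irf1, fell by 0.64 ± 0.19 on the log2 scale (limma adjusted p = 0.0213). The receptor for type I interferon did not pass the test, with a difference of 0.29 ± 0.15 for Ifnar1 and 0.10 ± 0.17 for Ifnar2. Ifngr2 and Ifnar1 were named after their values were seen. Of 15 genes of nucleic acid sensing, 2 were higher and 0 lower, against 10.3% and 8.73% of all genes tested. The higher ones were Traf3 (0.64 ± 0.15, limma adjusted p = 0.00442) and Aim2 (1.03 ± 0.30, limma adjusted p = 0.0171), also named after their values were seen. Mavs, the adaptor of the RNA sensors, was not called (-0.41, limma adjusted p = 0.153).

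A wider list of other interferon-induced genes gave 9 higher and 2 lower of 55 tested, with a median log2 difference of 0.17. All genes tested gave 10.3% higher and 8.73% lower, with a median of -0.04. Among its 5 most abundant genes, Ly6e rose by 1.34 ± 0.25 (limma adjusted p = 0.000628) and Lap3 fell by 0.79 ± 0.21 on the log2 scale (limma adjusted p = 0.011), while C4b, Serping1 and Psme1 were not called. Ifi27l2b, named after its values were seen, had the list's largest difference at 3.61 ± 0.51 (limma adjusted p = 3.71e-05). It ran from 0 to 57.4 scaled TPM in the livers, with liver 1 highest, and from 58.9 to 92.0 in the tumors, so that every tumor lay above every liver. The chemokine Cxcl9, an interferon-γ target named after its values were seen, had 8.79, 51.8 and 55.7 scaled TPM in tumors 3, 5 and 10, at most 10.01 in the remaining tumors and at most 3.19 in the livers. This list shares Ifit3b with the 46 members.

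The second comparison concerned the tags E19 and E20, which separate samples beyond the groups. With group in the fit, 5 of 42 members differed between the tags (11.9%), against 21.5% of all genes tested. Stat2 (0.69 ± 0.16, limma adjusted p = 0.00579), Mx2 (0.78 ± 0.23, limma adjusted p = 0.024) and Parp14 (0.57 ± 0.17, limma adjusted p = 0.0198) were higher in E20, and Cmpk2 (-0.76 ± 0.23, limma adjusted p = 0.0269) and Bst2 (-0.62 ± 0.20, limma adjusted p = 0.031) were lower. Over all genes 13.3% were higher and 8.26% lower in E20. The share of higher genes among those called was 61.6% with the scaling used, 99.7% without scaling and 95.6% with upper quartile scaling, and without scaling none of these 5 members was called. Without liver 5, 2 members remained called, Stat2 and Mx2. Tumors 3, 5 and 10 all carry the tag E19, as do 4 of the other 9 tumors.

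Within the tags, the tumor-liver difference was positive for 39 of 42 members tested in the E19 samples alone (2 livers and 7 tumors) and for 31 of 40 in the E20 samples alone (4 livers and 5 tumors). The median difference of the members was 0.63 and 0.48, against 0.03 and -0.08 over all genes tested in the same samples. Ifit2, Ifi44, Iigp1 and Rsad2 were called in E19 alone, 4 of 42 members against 1472 of all 11393 genes tested there. Oas1a was called in E20 alone, 1 of 40 members against 549 of 11566 genes. Neither count of members stood above the share over all genes. The limma interaction term, which tests whether the difference itself differs between the tags, gave 0% of all genes at an adjusted p under 0.05, with 334 genes and 0 members at an unadjusted p under 0.05. With 2 livers in E19 this does not show that the tags act alike. Igtp, for example, differed by 1.68 in E19 and 0.49 in E20, and Iigp1 by 1.61 and 0.83.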

How the data were processed

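Poly-A RNA of 6 livers and 12 tumors was analysed. Per the labels and the study's methods, the authors sequenced it paired end, aligned reads to GRCm38 (mm10) and quantified genes with Salmon, and edgeR is named in the submitters' processing notes. The deposited values are whole numbers that the authors call raw counts, but they were read as rounded TPM, since no sample's total exceeds 907513, so they were treated as a score and no count model was used. Read numbers cannot be recovered from TPM, so depth per gene is unknown and no counting intervals are given. Samples were grouped by their labels, and samples of 1 group are separate pieces of tissue.

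Values were divided by trimmed-mean-of-M-values factors (30% of M and 5% of A values trimmed, no weights, 0.190 to 1.41), and genes at 1 or more in at least 6 samples were fitted as log2(value + 1) with limma 3.58.1 in R 4.3.3 (trend in the prior variance). The exact permutation tests were two-sided, and the fit was tested on simulated data. Fits on fewer samples kept the same share of samples in the filter. Alternatives changed the scaling, pseudocount, filter, covariates and samples. All 46 members are accounted for. Members called, or with a median of at least 10 in a group, have their values printed, and up to 5 genes of each other list, those of highest mean, may be named. A gene and a marker list that the analysis also covered are not reported here. The members and lists were chosen with earlier results of these data known. Promoters and gene positions are from RefSeq GRCm38.p6 (Python 3.11.15, pandas 2.3.3, matplotlib 3.10.9), and shared stretches of 31 bases from GENCODE M21 transcripts of GRCm38. In 32 of 34 members with a window, a GENCODE transcript starts inside it.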

Additional observations from a re-analysis of the deposited data

Results flagged for a closer look

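Within the 6 livers, 9 of the 46 members had a single liver far from the other 5, by Dixon's test at its 95% critical value. For independent continuous values, chance gives about 1 in 20, or about 2.3 of 46. These values are rounded and often tied, so the 9 cannot be set against that number. At the high end, Irf7 was at 14.9 scaled TPM in liver 5, next 7.195. Usp18 was at 2.87 in liver 1, next 1.06, and Ifi35 at 13.6 in liver 1, next 9.58. Ifit2 was at 0.799 in liver 6, Ifit3b at 1.06 in liver 5 and Ifi44 at 0.717 in liver 1, each with the other 5 livers listed at 0. At the low end, Ifit1 in liver 3, Oasl2 in liver 4 and Rsad2 in liver 2 were each listed at 0, with the next liver at 0.717. The last 6 are steps of a single deposited unit. Liver 1 holds 3 of the 9.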

How the results depend on the processing

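The values are rounded, 6 livers limit the precision, and no alternative turned the sign of a called member. The 14 members called became 8 without scaling, which also moved the median of all genes from -0.04 to -0.18 and all calls from 2175 to 1341. They became 4 in E19 samples alone (1472 genes), 1 in E20 samples alone (549 genes) and 20 with sample weights (4579 genes). Leaving out each sample in turn gave 7 to 16 members (1623 to 3207 genes). Without liver 3 it was 7 (1707 genes), without liver 2 it was 8 (1623 genes), and without tumor 2 it was 16 (3207 genes). Ifit2, Ifit3, Ifi44, Iigp1, Isg15, Oas1a and Rsad2 were called in all 18 of these fits, while Cmpk2 was called in 9 of 18 and Ifit3b in 3 of the 12 that could test it.

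Replicate numbers were not taken to pair the samples, since that would need a correlation over 0.1 in all 6 same-numbered pairs. Correlations ran from -0.135 to 0.436 with 4 of 6 over 0.1, their mean was 0.174 against -0.04 for other pairs, and 3 of 6 livers correlated best with their own number. With a replicate block, livers and tumors 1 to 6 gave 12 members, Parp14 among them, and 1513 genes, and without the block 9 members and 1370 genes.

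Between the tags, 5 members and 2465 genes were called. Without scaling 1 member, Mx1, and 1154 genes were called and none of the 5. There were 3 members with a pseudocount of 0.1 and 3 with upper quartile scaling. Leaving out a sample gave 2 to 7 members and 1638 to 2755 genes, the lowest of both without liver 5. The tumor-liver difference between tags gave 0 to 1 genes, the 1 without liver 5 or without tumor 2, and 0 members. For tumors against livers, the other alternatives, among them age or tag as a covariate, tumors 11 and 12 averaged, median of ratios scaling and no filter, kept the count of members between 10 and 15. With the tag as a covariate Stat2 and Parp14 were gained and Ifit3b was lost.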
